A study of Mus musculus with 14 samples.

Results

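DNA methylation and histone modifying enzymes were followed as 44 genes chosen by name. They are the DNA methyltransferases and their partner Uhrf1, the TET oxidases, the core of Polycomb repressive complexes PRC2 and PRC1, histone lysine methyltransferases and demethylases, deacetylases, the acetyltransferases Ep300 and Crebbp, and the SWI/SNF members Smarca2, Smarca4, Arid1a and Arid1b. All 44 of 44 were found among the 20377 gene symbols of the deposited table, each represented by its transcript with the highest mean level. DNA methyltransferases add a methyl group to cytosine, mostly where a guanine follows, and TET enzymes oxidise that mark as a step towards its removal. PRC2 methylates histone H3 at lysine K27 and PRC1 binds that mark and ubiquitinates histone H2A, both linked to gene silencing, while acetyltransferases and SWI/SNF remodellers open chromatin and deacetylases reverse acetylation. In liver, this machinery is known for holding hepatocyte and biliary gene programmes apart and for its part in regeneration.

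The cells were sorted from livers of C57BL/6 mice that were chimeras, in which mature hepatocytes of donor origin carried a red fluorescent marker. All groups came from animals exposed over 5 to 8 weeks to the toxicant DDC (3,5-diethoxycarbonyl-1,4-dihydrocollidine) at 0.1%, which raises porphyrins and provokes a ductal reaction, so no uninjured cells were compared here. Hepatocyte-derived ductal cells (5 libraries, numbered 219, 220, 225, 248 and 611) were positive for the ductal surface antigen MIC1-1C3 and for mTomato, the donor hepatocyte label, with low side scatter and without CD11b, CD26, CD31 or CD45. Cholangiocyte-derived ductal cells (5 libraries, numbered 118, 219, 220, 225 and 611) are the host-derived ductal cells that lack the donor label, and hepatocytes (4 libraries, numbered 118, 225, 248 and 611) are the third population. Values by library are given in the order of these numbers throughout. The label marks donor hepatocytes only, and the sources used here do not give the animals' age or sex. Whether the libraries of a group come from different mice is also not stated, so p-values measure the spread between these libraries, which may be technical.

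The values are RPKM, reads normalized to transcript length and library size, so levels can be set side by side between genes. The summed biliary markers ranged over 16931 to 19725 RPKM in hepatocyte-derived ductal cells, 20340 to 21963 RPKM in cholangiocyte-derived ductal cells and 606 to 1419 RPKM in hepatocytes. The summed hepatocyte markers ranged over 4227 to 8966 RPKM in hepatocyte-derived ductal cells, 2778 to 4311 RPKM in cholangiocyte-derived ductal cells and 43190 to 60836 RPKM in hepatocytes. Hepatocyte library 118 carried 1006 RPKM of macrophage, 190 RPKM of endothelial and 132 RPKM of stellate markers, against 25.1 to 35.5, 4.25 to 12.7 and 4.68 to 6.75 RPKM in the other hepatocyte libraries. Cholangiocyte-derived libraries 118 and 220 carried 324 and 384 RPKM of stellate markers, against 29.6 to 66.0 RPKM in the other 3 of that group and 9.47 to 25.8 RPKM in hepatocyte-derived ductal cells. The 7 lymphocyte markers stayed below 1 RPKM in every library. In such bulk samples, fewer cells of a type and less RNA per cell cannot be told apart.

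Because the results below turn on Uhrf1, Dnmt1 and the cell cycle genes set beside them, the start regions of 3 members are shown. Each is a window of 300 bases around an annotated gene start, most of it upstream, from RefSeq on build GRCm38.p6, written 5′ to 3′ on the gene's strand. Capitals mark matches to the E2F-type motif, searched as TTTCCCGC, TTTCGCGC, TTTGCCGC or TTTGGCGC on both strands. E2F factors drive genes of DNA synthesis at the start of S phase. The windows are chr17:56304063-56304362 on the plus strand for Uhrf1, chr9:20952574-20952873 on the minus strand for Dnmt1 and chr6:47594981-47595280 on the minus strand for Ezh2.
Uhrf1: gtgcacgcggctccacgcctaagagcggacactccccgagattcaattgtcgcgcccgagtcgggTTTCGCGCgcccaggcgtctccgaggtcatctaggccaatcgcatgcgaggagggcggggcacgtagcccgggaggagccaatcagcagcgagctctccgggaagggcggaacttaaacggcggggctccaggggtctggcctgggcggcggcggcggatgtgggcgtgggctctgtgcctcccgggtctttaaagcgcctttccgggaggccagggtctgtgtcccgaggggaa
Dnmt1: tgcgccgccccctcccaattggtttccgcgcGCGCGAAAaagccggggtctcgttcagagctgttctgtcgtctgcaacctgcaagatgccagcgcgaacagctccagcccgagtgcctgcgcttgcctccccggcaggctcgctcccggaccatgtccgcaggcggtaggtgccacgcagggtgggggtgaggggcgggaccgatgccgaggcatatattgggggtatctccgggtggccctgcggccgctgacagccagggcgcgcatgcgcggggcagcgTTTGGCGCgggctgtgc
Ezh2: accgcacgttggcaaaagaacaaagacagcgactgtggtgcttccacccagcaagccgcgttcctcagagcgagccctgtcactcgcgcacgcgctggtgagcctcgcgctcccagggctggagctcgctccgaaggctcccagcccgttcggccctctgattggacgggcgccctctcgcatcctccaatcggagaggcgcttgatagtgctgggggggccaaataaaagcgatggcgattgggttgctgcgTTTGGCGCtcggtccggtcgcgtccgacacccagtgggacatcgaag
The Uhrf1 match begins at position -185 relative to the gene start. Dnmt1 has a match on the opposite strand, at position -219, and another on its own strand, and the Ezh2 match begins at position 3. Only windows with a match are printed. No match was found in the Uhrf1 window chr17:56303087-56303386 or in the Dnmt1 windows chr9:20959839-20960138 and chr9:20952930-20953229. Of the Dnmt1 windows the printed one lies farthest downstream, while the Dnmt1 transcript measured has the start farthest upstream. A start window was available for 39 of the 44 members, and a match was found in 6 of them, namely Uhrf1, Dnmt1, Ezh2, Suz12, Suv39h1 and Arid1a. That is 15.4% of the members with a window, beside 2.60% of all 27025 genes. Counted over windows, 11.8% of the 51 member windows and 2.26% of all 32851 windows held a match. Each form of the motif searched contains a CpG, and the members' windows were rich in CpG. The median observed over expected ratio was 0.89 across members and 0.415 across all genes. A window at or above 0.6 was present for 92.3% of members and 38.4% of all genes. The shares with a match were not compared among genes of like CpG content. These are descriptions of letters in a window and do not locate a bound factor.

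Both ductal populations carried more transcript of this machinery than hepatocytes, from DNA methylation to chromatin remodelling. In hepatocyte-derived ductal cells against hepatocytes, 42 of the 42 members with enough signal for a test rose and 0 fell (limma on log2(RPKM + 1), adjusted p under 0.05). Across all 12638 genes tested, 66.2% were called higher and 14.8% lower. In cholangiocyte-derived ductal cells against hepatocytes, 42 of 42 members rose and 0 fell, beside 67.1% of all genes called higher and 17.4% lower. One of the 42, Tet1, passed the filter on low values only through the cholangiocyte-derived libraries. Both comparisons share the 4 hepatocyte libraries. The median log2 fold change of the members was 1.42 in hepatocyte-derived and 1.47 in cholangiocyte-derived ductal cells, but the median of all genes was itself 0.67 and 0.76, so size is read against those shifts.

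Rescaling each library by the median ratio to the others brought the all-gene medians to 0.03 and 0.08. In hepatocyte-derived ductal cells against hepatocytes on that scale, 30 members were higher and 1, Eed, was lower, where 37.9% of all genes were higher and 36.0% lower. In cholangiocyte-derived ductal cells against hepatocytes, 35 members were higher and 0 lower, where 41.1% of all genes were higher and 37.5% lower. After quantile normalization, hepatocyte-derived ductal cells had 28 members higher and 1 lower than hepatocytes (36.4% and 32.7% of all genes), and cholangiocyte-derived ductal cells had 32 higher and 3 lower (38.7% and 37.7% of all genes). Called higher on the deposited values, after this rescaling and after quantile normalization were 26 members in hepatocyte-derived ductal cells, 61.9% of those tested beside 28.3% of all genes. In cholangiocyte-derived ductal cells they were 31 members, 73.8% beside 31.2% of all genes. The 16 others in hepatocyte-derived ductal cells, which lost the call or turned under at least 1 of these scalings, were Dnmt3b, Tet2, Tet3, Ezh1, Eed, Suz12, Cbx8, Suv39h1, Dot1l, Hdac1, Hdac4, Hdac6, Hdac8, Hdac11, Sirt1 and Smarca2. In cholangiocyte-derived ductal cells the 11 others were Dnmt3b, Tet3, Eed, Suz12, Cbx2, Cbx8, Suv39h1, Hdac4, Hdac6, Hdac8 and Smarca2. All library values of hepatocyte-derived ductal cells exceeded those of hepatocytes for 40 of 42 members, all but Dnmt3b and Hdac11, beside 59.9% of all genes, and those of cholangiocyte-derived ductal cells for 42 of 42, beside 60.5%. Without the 3 libraries rich in transcripts of other cells (cholangiocyte-derived 118 and 220, hepatocyte 118), 40 of 41 tested members rose in hepatocyte-derived and 41 of 41 in cholangiocyte-derived ductal cells, Tet1 no longer passing the filter. With all libraries 66.2% and 67.1% of all genes rose, and the shares without these 3 are not given here. A log2 fold change of at least 1 was reached by 29 of 42 members in hepatocyte-derived ductal cells (34.0% of all genes) and by 34 of 42 in cholangiocyte-derived ductal cells (40.0% of all genes).

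**Figure D1:**
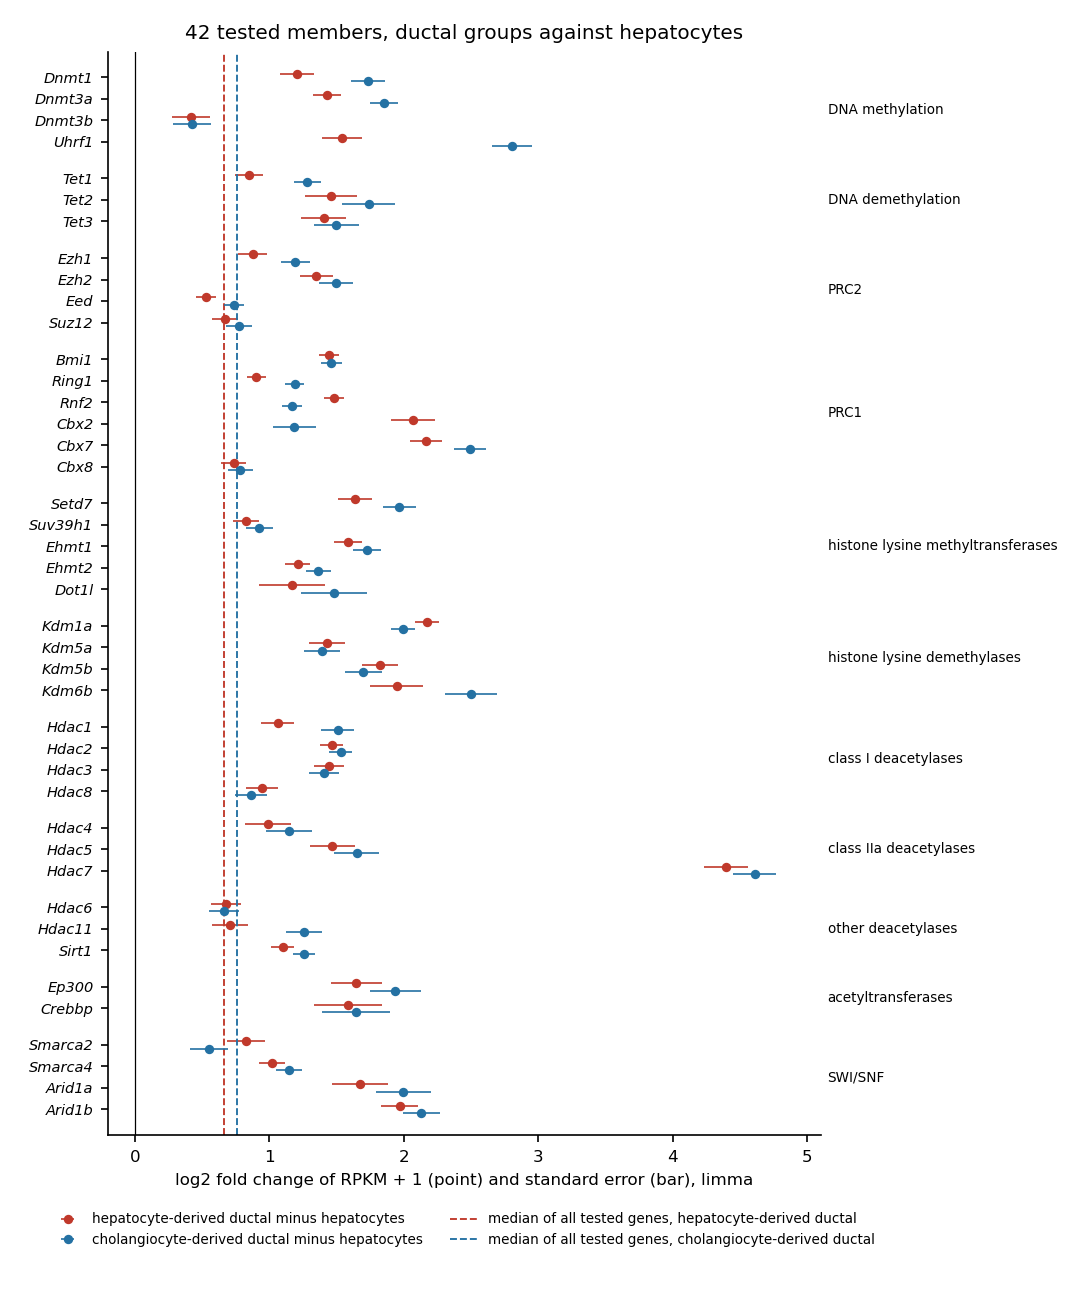
Log2 fold change on log2(RPKM + 1) for the 42 tested members, ordered by role, in hepatocyte-derived and cholangiocyte-derived ductal cells, each against hepatocytes; points are limma estimates, bars are standard errors and dashed lines are the medians of all 12638 genes (0.67 and 0.76). Hdac7 stands farthest right at 4.40 and 4.61, and Dnmt3b lies left of both dashed lines at 0.42.

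The genes of maintenance methylation separated all 3 populations. Uhrf1, which recognises half-methylated DNA behind the replication fork and brings Dnmt1 to it, measured 4.68, 4.47, 4.23, 4.65 and 5.09 RPKM in hepatocyte-derived ductal cells, 13.0, 14.1, 16.0, 12.6 and 8.04 RPKM in cholangiocyte-derived ductal cells and 1.13, 0.65, 1.09 and 0.89 RPKM in hepatocytes. The groups did not overlap, and cholangiocyte-derived library 611 was the lowest of its group. The mean was 4.62 ± 0.32 RPKM (SD, n = 5) in hepatocyte-derived ductal cells, 12.8 ± 2.94 RPKM (SD, n = 5) in cholangiocyte-derived ductal cells and 0.94 ± 0.22 RPKM (SD, n = 4) in hepatocytes. The Uhrf1 log2 fold change was 1.54 ± 0.15 (SE, limma adjusted p = 2.39e-07) for hepatocyte-derived ductal cells against hepatocytes and 2.80 ± 0.15 (SE, adjusted p = 2.87e-10) for cholangiocyte-derived ductal cells against hepatocytes. Between the ductal populations Uhrf1 was lower in hepatocyte-derived cells, with a log2 fold change of -1.26 ± 0.14 (SE, limma adjusted p = 5.99e-06). That is 0.36 of the level in cholangiocyte-derived ductal cells by mean RPKM.

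Dnmt1, the methyltransferase that copies methylation to the new DNA strand, measured 16.2, 16.0, 18.3, 16.6 and 17.9 RPKM in hepatocyte-derived ductal cells, 22.8, 27.0, 27.1, 25.7 and 21.9 RPKM in cholangiocyte-derived ductal cells and 4.56, 7.92, 7.86 and 7.33 RPKM in hepatocytes. Again no group overlapped another, and hepatocyte library 118 was the lowest of all libraries. Dnmt1 rose by 1.21 ± 0.13 on the log2 scale (SE, limma adjusted p = 5.83e-07) in hepatocyte-derived and by 1.73 ± 0.13 (SE, adjusted p = 8.69e-09) in cholangiocyte-derived ductal cells against hepatocytes. Hepatocyte-derived ductal cells had less of it than cholangiocyte-derived ones, with a log2 difference of -0.52 ± 0.12 (SE, limma adjusted p = 0.00309). In the mm9 build of the table, Uhrf1 lies at chr17:56443736-56462909 and Dnmt1 at chr9:20711650-20764332.

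The de novo methyltransferases, which set methylation on unmethylated DNA, differed widely in level. Dnmt3a averaged 11.5 ± 1.28 RPKM in hepatocyte-derived ductal cells, 15.7 ± 1.03 RPKM in cholangiocyte-derived ductal cells (SD, n = 5 each) and 3.66 ± 0.69 RPKM in hepatocytes (SD, n = 4). Its 3 groups did not overlap, and it fell by 0.42 on the log2 scale in hepatocyte-derived against cholangiocyte-derived ductal cells (limma adjusted p = 0.00325). Dnmt3b, the low-abundance paralog, measured 1.41, 1.20, 1.51, 1.70 and 1.82 RPKM in hepatocyte-derived ductal cells, 1.43, 1.67, 1.45, 1.65 and 1.46 RPKM in cholangiocyte-derived ductal cells and 0.35, 0.88, 1.07 and 1.40 RPKM in hepatocytes. Hepatocyte library 611 exceeded hepatocyte-derived library 220, so these groups overlapped, while all cholangiocyte-derived values lay above the hepatocyte values. Dnmt3b had a log2 fold change of 0.42 ± 0.14 (SE, limma adjusted p = 0.0128) in hepatocyte-derived and 0.42 ± 0.14 (SE, adjusted p = 0.0113) in cholangiocyte-derived ductal cells against hepatocytes, but -0.56 and -0.85 after quantile normalization. Its direction against hepatocytes therefore depends on the scaling.

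Of the TET oxidases, Tet1 was measured in every ductal library and hardly in hepatocytes. Tet1, known in mouse cholangiocytes for its part in organoid formation, measured 0.77, 0.69, 0.87, 0.98 and 0.80 RPKM in hepatocyte-derived and 1.05, 1.38, 1.51, 1.47 and 1.96 RPKM in cholangiocyte-derived ductal cells, and was listed at 0.01 RPKM in all 4 hepatocyte libraries. No fold is given against hepatocytes, since 0.01 is the smallest step of the table. It reached 1 RPKM in the 5 cholangiocyte-derived libraries and in no other, so it was tested only because of the group in which it is highest, and its difference between the ductal populations is given as a description. The values of the ductal groups did not overlap, and the log2 difference of hepatocyte-derived minus cholangiocyte-derived ductal cells was -0.43 on the deposited values and -0.07 after quantile normalization. Tet2 ranged over 4.80 to 8.06 RPKM in hepatocyte-derived and 6.66 to 10.4 RPKM in cholangiocyte-derived ductal cells, against 0.78 to 2.89 RPKM in hepatocytes. In the same order, Tet3 ranged over 6.53 to 8.75, 7.44 to 9.76 and 1.08 to 3.20 RPKM. For both, all ductal values lay above all hepatocyte values, and the 2 ductal populations overlapped.

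PRC2 rose less than most roles. The median log2 fold change of its 4 members was 0.77 in hepatocyte-derived and 0.98 in cholangiocyte-derived ductal cells against hepatocytes, beside all-gene medians of 0.67 and 0.76. Ezh2, the catalytic subunit that dominates in dividing cells, measured 14.2, 12.8, 13.2, 13.7 and 12.7 RPKM in hepatocyte-derived ductal cells, 14.4, 17.6, 18.1, 13.96 and 11.04 RPKM in cholangiocyte-derived ductal cells and 3.78, 4.70, 4.99 and 5.08 RPKM in hepatocytes. Hepatocyte-derived values fell inside the cholangiocyte-derived range, and both ductal groups lay above all hepatocytes. The Ezh2 log2 fold change was 1.35 ± 0.12 (SE, limma adjusted p = 1.26e-07) in hepatocyte-derived and 1.495 ± 0.123 (SE, adjusted p = 3.01e-08) in cholangiocyte-derived ductal cells against hepatocytes.

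Ezh1, the catalytic paralog known from non-dividing cells, was the more abundant of the pair in all 3 populations and measured 20.4, 16.3, 18.1, 18.6 and 15.7 RPKM in hepatocyte-derived ductal cells, 19.8, 22.4, 24.9, 21.3 and 23.6 RPKM in cholangiocyte-derived ductal cells and 7.66, 10.3, 10.9 and 8.36 RPKM in hepatocytes. Hepatocyte-derived library 219 exceeded cholangiocyte-derived library 118, the single crossing between the ductal groups. Ezh1 rose by 0.87 ± 0.11 (SE, limma adjusted p = 3.19e-06) in hepatocyte-derived and by 1.19 ± 0.11 (SE, adjusted p = 9.16e-08) in cholangiocyte-derived ductal cells against hepatocytes, and was lower in hepatocyte-derived than in cholangiocyte-derived ductal cells (-0.32 ± 0.10, SE, adjusted p = 0.0249). In hepatocyte-derived ductal cells against hepatocytes the Ezh1 difference was 0.14 both after rescaling and after quantile normalization and lost the call. Within a library, the log2 ratio of Ezh2 to Ezh1 averaged -0.41 ± 0.09 in hepatocyte-derived ductal cells (SD, n = 5) and -0.98 ± 0.19 in hepatocytes (SD, n = 4), a difference of 0.57 (exact permutation test, two-sided, adjusted p = 0.0238). In cholangiocyte-derived ductal cells it averaged -0.59 ± 0.29 (SD, n = 5), 0.39 above hepatocytes (exact permutation test, adjusted p = 0.0933). The ductal populations differed by 0.18 in this ratio (exact permutation test, adjusted p = 0.312).

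The scaffolding subunits were the least raised of PRC2. Eed, which reads the mark that PRC2 deposits, measured 18.3, 20.7, 18.5, 20.0 and 20.8 RPKM in hepatocyte-derived ductal cells, 20.9, 24.4, 24.0, 22.7 and 22.4 RPKM in cholangiocyte-derived ductal cells and 14.3, 12.2, 12.8 and 14.1 RPKM in hepatocytes. Ductal values all exceeded hepatocyte values, and the ductal groups were separated by the narrow gap between 20.8 and 20.9 RPKM. Eed had a log2 fold change of 0.53 ± 0.07 (SE, limma adjusted p = 8.51e-06) in hepatocyte-derived and 0.74 ± 0.07 (SE, adjusted p = 2.07e-07) in cholangiocyte-derived ductal cells against hepatocytes, which became -0.22 and -0.04 after rescaling. Between the ductal populations it was -0.21 ± 0.07 (SE, limma adjusted p = 0.0270). Suz12, needed for the stability of the complex, measured 19.7, 20.4, 18.7, 20.8 and 23.1 RPKM in hepatocyte-derived ductal cells, 23.7, 21.4, 22.9, 23.0 and 19.8 RPKM in cholangiocyte-derived ductal cells and 9.93, 13.6, 13.6 and 13.4 RPKM in hepatocytes. Hepatocyte library 118 was the lowest, and the ductal groups overlapped. Its log2 fold change was 0.67 ± 0.10 (SE, limma adjusted p = 1.52e-05) in hepatocyte-derived and 0.77 ± 0.10 (SE, adjusted p = 2.83e-06) in cholangiocyte-derived ductal cells against hepatocytes, and -0.08 and -0.0021 after rescaling.

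In PRC1, the chromodomain subunits that give the complex its reading of the Polycomb mark were ordered differently from gene to gene. Cbx2 measured 16.0, 10.8, 13.0, 13.1 and 13.1 RPKM in hepatocyte-derived ductal cells, 5.71, 9.72, 7.07, 5.73 and 5.68 RPKM in cholangiocyte-derived ductal cells and 1.62, 2.29, 2.77 and 2.94 RPKM in hepatocytes. Every hepatocyte-derived library was above every cholangiocyte-derived library, and those were above every hepatocyte library. Cbx2 was one of 2 members higher in hepatocyte-derived than in cholangiocyte-derived ductal cells, beside 15.1% of all genes, with a log2 fold change of 0.88 ± 0.15 (SE, limma adjusted p = 0.000312), 1.95-fold by mean RPKM. Against hepatocytes it rose by 2.07 ± 0.16 (SE, limma adjusted p = 2.29e-08) in hepatocyte-derived and by 1.18 ± 0.16 (SE, adjusted p = 6.83e-06) in cholangiocyte-derived ductal cells. After quantile normalization the difference in cholangiocyte-derived ductal cells was 0.04 and lost the call.

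Cbx7, which pairs with PRC1 in many differentiated cells, measured 24.9, 16.9, 18.3, 17.9 and 16.98 RPKM in hepatocyte-derived ductal cells, 20.1, 23.6, 23.0, 25.8 and 26.9 RPKM in cholangiocyte-derived ductal cells and 3.35, 3.26, 4.05 and 3.04 RPKM in hepatocytes. Hepatocyte-derived library 219 reached into the cholangiocyte-derived range, and hepatocytes lay far below both. Cbx7 rose by 2.17 ± 0.12 (SE, limma adjusted p = 7.50e-10) in hepatocyte-derived and by 2.49 ± 0.12 (SE, adjusted p = 9.17e-11) in cholangiocyte-derived ductal cells against hepatocytes, and it was lower in hepatocyte-derived than in cholangiocyte-derived ductal cells (-0.32 ± 0.11, SE, adjusted p = 0.0349). Cbx8 averaged 8.41 ± 0.89 RPKM in hepatocyte-derived ductal cells, 8.72 ± 0.60 RPKM in cholangiocyte-derived ductal cells (SD, n = 5 each) and 4.66 ± 0.61 RPKM in hepatocytes (SD, n = 4), and its rise against hepatocytes (0.74 and 0.79) turned to -0.20 and -0.25 after quantile normalization. Cbx8 relative to Cbx7, as a log2 ratio, averaged -1.16 ± 0.12 in hepatocyte-derived and -1.44 ± 0.10 in cholangiocyte-derived ductal cells (SD, n = 5 each), against 0.43 ± 0.19 in hepatocytes (SD, n = 4). It differed from hepatocytes by -1.59 and -1.87 (exact permutation test, two-sided, adjusted p = 0.0238 for both) and between hepatocyte-derived and cholangiocyte-derived ductal cells by 0.28 (exact permutation test, adjusted p = 0.0333).

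Cbx2 and Cbx8 are neighbours on mm9 chromosome 11, at chr11:118884343-118892584 on the plus strand and chr11:118899750-118902227 on the minus strand. Unlike those of Cbx2, the ductal groups of Cbx8 overlapped, and its difference between hepatocyte-derived and cholangiocyte-derived ductal cells was -0.05 ± 0.09 (SE, limma adjusted p = 0.710).

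The catalytic RING subunits of PRC1, which ubiquitinate histone H2A, also parted. Rnf2 (Ring1B) measured 32.5, 35.9, 29.9, 33.6 and 36.7 RPKM in hepatocyte-derived ductal cells, 28.4, 28.3, 28.4, 25.4 and 24.7 RPKM in cholangiocyte-derived ductal cells and 11.2, 11.6, 12.1 and 10.8 RPKM in hepatocytes. Ring1 measured 22.2, 21.5, 20.8, 21.4 and 20.6 RPKM in hepatocyte-derived ductal cells, 23.3, 25.1, 25.4, 27.6 and 29.8 RPKM in cholangiocyte-derived ductal cells and 10.8, 10.5, 11.8 and 10.7 RPKM in hepatocytes. Rnf2 was higher in all hepatocyte-derived than in all cholangiocyte-derived libraries, whereas Ring1 was lower in all of them, and hepatocytes were lowest for both. The difference between hepatocyte-derived and cholangiocyte-derived ductal cells was 0.31 ± 0.07 for Rnf2 (SE, limma adjusted p = 0.00307) and -0.28 ± 0.07 for Ring1 (SE, adjusted p = 0.00428). Ring1 relative to Rnf2, as a log2 ratio, averaged -0.66 ± 0.13 in hepatocyte-derived and -0.04 ± 0.23 in cholangiocyte-derived ductal cells (SD, n = 5 each), against -0.07 ± 0.05 in hepatocytes (SD, n = 4). In hepatocyte-derived ductal cells it differed by -0.61 from cholangiocyte-derived ones and by -0.59 from hepatocytes (exact permutation test, two-sided, adjusted p = 0.0238 for both). Bmi1, the partner that stimulates the ligase, averaged 31.4 and 31.8 RPKM in hepatocyte-derived and cholangiocyte-derived ductal cells and 10.9 RPKM in hepatocytes.

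**Figure D2:**
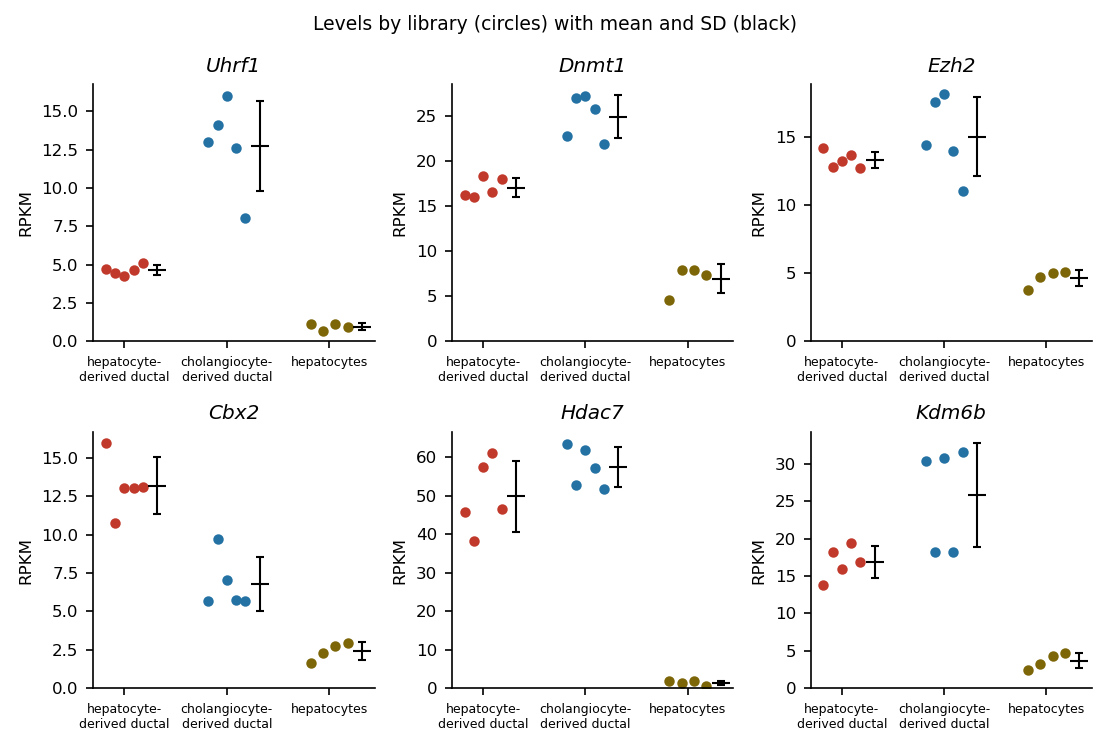
RPKM of Uhrf1, Dnmt1, Ezh2, Cbx2, Hdac7 and Kdm6b in each library, with hepatocyte-derived ductal cells at left, cholangiocyte-derived ductal cells in the middle and hepatocytes at right; each point is a library and bars show the group mean and SD. Uhrf1 sits at 4.23 to 5.09 RPKM in hepatocyte-derived ductal cells, 8.04 to 16.0 RPKM in cholangiocyte-derived ductal cells and 0.65 to 1.13 RPKM in hepatocytes, and Cbx2 is the panel in which hepatocyte-derived ductal cells are highest.

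The histone lysine demethylases were the role with the largest median rise in hepatocyte-derived ductal cells against hepatocytes, 1.88 over 4 members, and 1.85 in cholangiocyte-derived ductal cells. Kdm1a (LSD1), which removes methyl groups from histone H3 lysine K4 as part of corepressor complexes, measured 56.6, 54.4, 63.4, 61.7 and 62.7 RPKM in hepatocyte-derived ductal cells, 49.5, 57.2, 51.0, 55.7 and 49.9 RPKM in cholangiocyte-derived ductal cells and 10.6, 13.7, 13.98 and 11.9 RPKM in hepatocytes. Ductal values were several times the hepatocyte values, and the ductal groups overlapped. Kdm1a rose by 2.17 ± 0.09 (SE, limma adjusted p = 4.23e-11) in hepatocyte-derived and by 1.99 ± 0.09 (SE, adjusted p = 4.13e-11) in cholangiocyte-derived ductal cells. Kdm5a and Kdm5b, which act on the trimethylated form of the same lysine, averaged 18.1 and 21.7 RPKM in hepatocyte-derived ductal cells, 17.6 and 19.9 RPKM in cholangiocyte-derived ductal cells and 6.20 and 5.58 RPKM in hepatocytes. The log2 ratio of Kdm5b to Kdm5a was higher by 0.42 in hepatocyte-derived and by 0.34 in cholangiocyte-derived ductal cells than in hepatocytes (exact permutation test, two-sided, adjusted p = 0.0238 for both).

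Kdm6b (JMJD3), which removes the mark of PRC2 and is known as inducible by inflammatory signals, measured 13.8, 18.2, 16.0, 19.4 and 16.8 RPKM in hepatocyte-derived ductal cells, 30.3, 18.2, 30.7, 18.3 and 31.6 RPKM in cholangiocyte-derived ductal cells and 2.48, 3.22, 4.32 and 4.77 RPKM in hepatocytes. The cholangiocyte-derived libraries 118, 220 and 611 lay between 30.3 and 31.6 RPKM, while 219 and 225, at 18.2 and 18.3 RPKM, lay within the hepatocyte-derived range. Kdm6b rose by 1.95 ± 0.19 (SE, limma adjusted p = 3.39e-07) in hepatocyte-derived and by 2.50 ± 0.19 (SE, adjusted p = 1.62e-08) in cholangiocyte-derived ductal cells against hepatocytes. It was lower in hepatocyte-derived than in cholangiocyte-derived ductal cells (-0.55 ± 0.18, SE, limma adjusted p = 0.0288). Without the 3 libraries rich in transcripts of other cells that difference was -0.37 with adjusted p = 0.138, in a range of 0.00120 to 0.138 over the alternatives.

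Of the histone lysine methyltransferases, 5 of 6 were tested and all 5 rose in both ductal populations against hepatocytes, beside 66.2% of all genes in hepatocyte-derived and 67.1% in cholangiocyte-derived ductal cells. Setd7, a monomethyltransferase of histone H3 lysine K4, averaged 11.1 ± 1.16 RPKM in hepatocyte-derived ductal cells, 14.2 ± 0.81 RPKM in cholangiocyte-derived ductal cells (SD, n = 5 each) and 2.94 ± 0.82 RPKM in hepatocytes (SD, n = 4), with log2 fold changes of 1.64 and 1.97 against hepatocytes. Ehmt2 (G9a) and Ehmt1 (GLP), partners that dimethylate histone H3 lysine K9, averaged 68.4 and 21.5 RPKM in hepatocyte-derived ductal cells, 76.01 and 23.8 RPKM in cholangiocyte-derived ductal cells and 28.9 and 6.58 RPKM in hepatocytes. Ehmt1 gained more than Ehmt2, their log2 ratio being higher by 0.48 in hepatocyte-derived (exact permutation test, two-sided, adjusted p = 0.0333) and by 0.47 in cholangiocyte-derived ductal cells (adjusted p = 0.0238) than in hepatocytes. Dot1l, which methylates histone H3 lysine K79, ranged over 11.3 to 13.96 RPKM in hepatocyte-derived ductal cells, 14.6 to 17.1 RPKM in cholangiocyte-derived ductal cells and 1.85 to 7.82 RPKM in hepatocytes.

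Suv39h1, which trimethylates lysine K9 in heterochromatin, averaged 7.76 RPKM in hepatocyte-derived ductal cells, 8.41 RPKM in cholangiocyte-derived ductal cells and 3.94 RPKM in hepatocytes, and its log2 fold changes against hepatocytes of 0.83 and 0.93 became -0.14 in both after quantile normalization. Its paralog Suv39h2, one of 2 members below 1 RPKM in too many libraries for a test, measured 0.82, 0.79, 0.70, 0.88 and 1.01 RPKM in hepatocyte-derived ductal cells, 0.70, 1.00, 0.92, 0.73 and 0.82 RPKM in cholangiocyte-derived ductal cells and 0.28, 0.48, 0.38 and 0.45 RPKM in hepatocytes. Both ductal groups lay above the hepatocytes at levels where counting and rounding error weigh.

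The deacetylases held the largest log2(RPKM + 1) fold change against hepatocytes among the 42 tested members. Hdac7, a class IIa deacetylase known from endothelial cells and thymocytes as a corepressor of MEF2 factors, measured 45.8, 38.3, 57.5, 61.2 and 46.5 RPKM in hepatocyte-derived ductal cells, 63.5, 52.9, 61.8, 57.1 and 51.8 RPKM in cholangiocyte-derived ductal cells and 1.89, 1.34, 1.81 and 0.70 RPKM in hepatocytes. Every ductal library lay far above every hepatocyte library. Mean levels were 34.7-fold higher in hepatocyte-derived and 40.0-fold higher in cholangiocyte-derived ductal cells than in hepatocytes, and the log2 fold changes were 4.40 ± 0.16 (SE, limma adjusted p = 1.86e-11) and 4.61 ± 0.16 (SE, adjusted p = 4.99e-12). The ductal groups overlapped, with a difference of -0.21 ± 0.15 (SE, limma adjusted p = 0.305). The summed endothelial markers ranged over 18.4 to 46.8 RPKM in hepatocyte-derived ductal cells, 17.8 to 113 RPKM in cholangiocyte-derived ductal cells and 4.25 to 190 RPKM in hepatocytes. In hepatocyte library 118, the one with 190 RPKM, Hdac7 stood at 1.89 RPKM. The part of endothelial transcripts in the Hdac7 levels was not tested. Hdac7 lies at chr15:97623112-97662102 in mm9.

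The other class IIa members differed in abundance. Hdac5 averaged 51.4 and 58.7 RPKM in hepatocyte-derived and cholangiocyte-derived ductal cells and 18.6 RPKM in hepatocytes. Hdac4 averaged 5.43 and 6.27 RPKM in the ductal populations and 2.31 RPKM in hepatocytes. Hdac9, the second member without a test, measured 0.02, 0.10, 0.08, 0.09 and 0.16 RPKM in hepatocyte-derived ductal cells, 0.37, 0.16, 0.30, 0.19 and 0.21 RPKM in cholangiocyte-derived ductal cells and 0.50 RPKM in hepatocyte library 118, and was listed at 0 in the other 3 hepatocyte libraries. The single hepatocyte value is thus in the library that carried 1006 RPKM of macrophage markers, whose part in it was not tested.

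The class I enzymes Hdac1, Hdac2 and Hdac3 are the catalytic subunits of nuclear corepressor complexes, Hdac3 with NCoR being known in hepatocytes for the control of lipid synthesis genes. Hdac3 and Hdac2 were abundant, with means of 82.2 and 51.6 RPKM in hepatocyte-derived ductal cells, 80.4 and 53.9 RPKM in cholangiocyte-derived ductal cells and 29.8 and 18.1 RPKM in hepatocytes. Hdac1 was lower than Hdac2 throughout and separated the ductal populations, with 10.3 ± 1.03 RPKM in hepatocyte-derived and 14.4 ± 0.47 RPKM in cholangiocyte-derived ductal cells (SD, n = 5 each), a log2 difference of -0.45 ± 0.11 (SE, limma adjusted p = 0.00650). The log2 ratio of Hdac1 to Hdac2 differed by -0.41 in hepatocyte-derived against cholangiocyte-derived ductal cells (exact permutation test, two-sided, adjusted p = 0.0238). Hdac8 ranged over 8.49 to 13.3 and 8.51 to 11.6 RPKM in hepatocyte-derived and cholangiocyte-derived ductal cells and 4.61 to 5.80 RPKM in hepatocytes.

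Hdac11, the single class IV enzyme, measured 52.4, 50.5, 41.5, 41.05 and 33.5 RPKM in hepatocyte-derived ductal cells, 64.1, 62.5, 68.5, 59.7 and 63.1 RPKM in cholangiocyte-derived ductal cells and 34.4, 24.0, 23.1 and 24.0 RPKM in hepatocytes. All hepatocyte-derived values were below all cholangiocyte-derived values, and hepatocyte library 118 exceeded hepatocyte-derived library 611. The log2 difference of hepatocyte-derived minus cholangiocyte-derived ductal cells was -0.54 ± 0.13 (SE, limma adjusted p = 0.00331). Its log2 fold change against hepatocytes was 0.71 ± 0.13 (SE, limma adjusted p = 0.000192) in hepatocyte-derived ductal cells, -0.06 after rescaling, and 1.25 ± 0.13 (SE, adjusted p = 5.31e-07) in cholangiocyte-derived ductal cells. Hdac6, a cytoplasmic deacetylase of tubulin, measured 13.1, 11.5, 14.02, 13.6 and 12.6 RPKM in hepatocyte-derived ductal cells, 11.9, 14.01, 12.1, 13.8 and 12.2 RPKM in cholangiocyte-derived ductal cells and 5.57, 8.51, 8.67 and 8.53 RPKM in hepatocytes. The ductal groups overlapped, and the rise against hepatocytes of 0.68 and 0.66 on the log2 scale became -0.04 and -0.09 after rescaling. Sirt1, an NAD-dependent deacetylase linked to nutrient sensing, averaged 12.1 and 13.6 RPKM in hepatocyte-derived and cholangiocyte-derived ductal cells and 5.08 RPKM in hepatocytes.

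The acetyltransferases Ep300 and Crebbp, coactivators that acetylate histone H3 at enhancers, rose by 1.65 ± 0.19 and 1.59 ± 0.25 (SE, limma adjusted p = 1.55e-06 and 3.84e-05) in hepatocyte-derived ductal cells against hepatocytes. In cholangiocyte-derived ductal cells they rose by 1.94 ± 0.19 and 1.65 ± 0.25 (SE, limma adjusted p = 2.14e-07 and 2.34e-05). Ep300 ranged over 19.8 to 23.2 RPKM in hepatocyte-derived ductal cells, 23.8 to 30.4 RPKM in cholangiocyte-derived ductal cells and 3.12 to 8.48 RPKM in hepatocytes.

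In SWI/SNF, Smarca4 (BRG1) and Smarca2 (BRM) are alternative ATPases, and Arid1a and Arid1b alternative DNA-binding subunits. Smarca2 measured 68.2, 73.2, 59.9, 60.4 and 54.9 RPKM in hepatocyte-derived ductal cells, 49.4, 56.2, 56.9, 54.4 and 44.4 RPKM in cholangiocyte-derived ductal cells and 44.3, 37.4, 37.1 and 24.8 RPKM in hepatocytes. Hepatocyte-derived and cholangiocyte-derived ductal cells overlapped, and the lowest cholangiocyte-derived value, 44.4 RPKM, was next to the highest hepatocyte value, 44.3 RPKM, in library 118. The log2 fold change was 0.82 ± 0.14 (SE, limma adjusted p = 8.57e-05) in hepatocyte-derived ductal cells and 0.55 ± 0.14 (SE, adjusted p = 0.00224) in cholangiocyte-derived ductal cells, which became 0.05 and -0.25 after rescaling, both without a call. The row used is a transcript of 1962 nt, and the longer transcript of 5921 nt averaged 41.9 RPKM in hepatocyte-derived ductal cells, 35.5 RPKM in cholangiocyte-derived ductal cells and 24.1 RPKM in hepatocytes. Smarca4 averaged 34.9 and 38.2 RPKM in hepatocyte-derived and cholangiocyte-derived ductal cells and 16.9 RPKM in hepatocytes. The log2 ratio of Smarca4 to Smarca2 differed by -0.40 in hepatocyte-derived against cholangiocyte-derived ductal cells (exact permutation test, two-sided, adjusted p = 0.0333). Arid1a and Arid1b, with transcripts of 8175 and 11325 nt, averaged 26.5 and 21.0 RPKM in hepatocyte-derived ductal cells, 33.4 and 23.7 RPKM in cholangiocyte-derived ductal cells and 8.08 and 4.70 RPKM in hepatocytes.

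**Figure D3:**
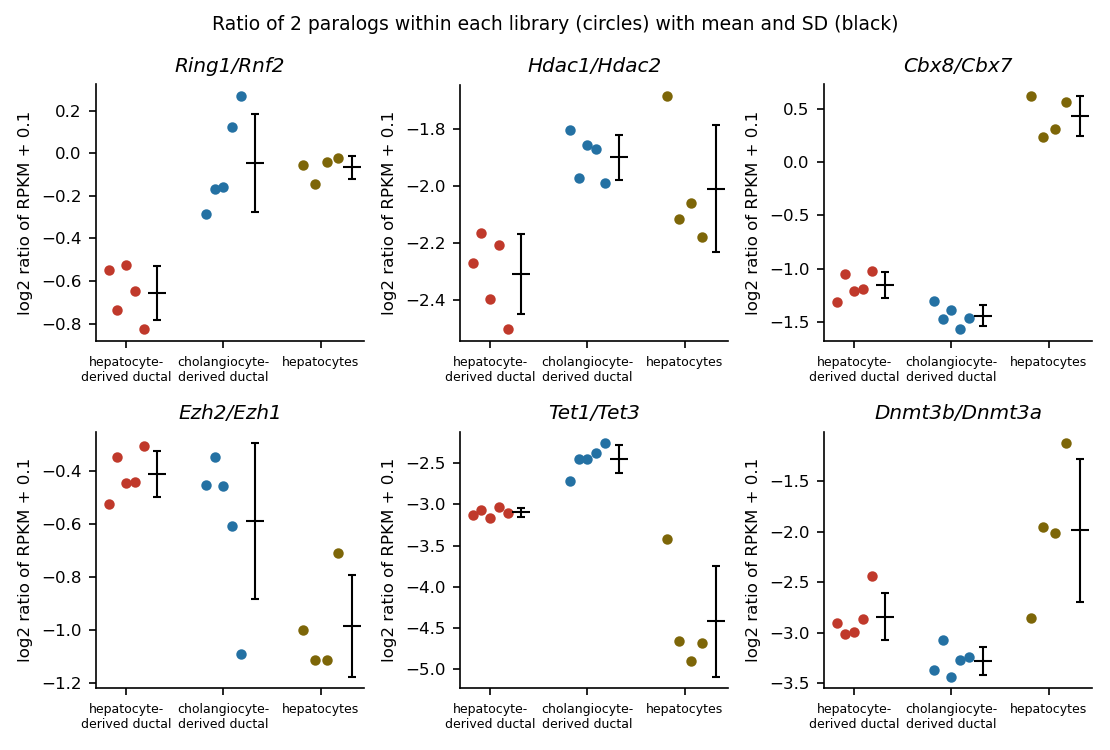
Log2 ratio of 6 paralog pairs within each library, by group, with hepatocyte-derived ductal cells at left, cholangiocyte-derived ductal cells in the middle and hepatocytes at right; each point is a library and bars show the mean and SD. Ring1/Rnf2 is lowest in hepatocyte-derived ductal cells (-0.66), and Cbx8/Cbx7 is negative in both ductal populations (-1.16 and -1.44) and positive in hepatocytes (0.43).

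A ratio within a library moves little with the library's scaling where both genes are well above the 0.1 RPKM added to each, and 14 paralog pairs were compared in 42 exact tests. In each of the 3 comparisons 7 of the 14 ratios differed, and Tet1 to Tet3 is counted among them each time. The log2 ratio of Dnmt3b to Dnmt3a differed by -1.29 in cholangiocyte-derived ductal cells against hepatocytes, and by 0.44 in hepatocyte-derived against cholangiocyte-derived ductal cells (exact permutation test, two-sided, adjusted p = 0.0238 for both). That of Tet1 to Tet3 differed by -0.65 in hepatocyte-derived against cholangiocyte-derived ductal cells. It is given as a description, since Tet1 passed the filter on low values only through the cholangiocyte-derived libraries. Against hepatocytes the Tet1 to Tet3 ratio rests on the 0.01 RPKM entries, and its difference for hepatocyte-derived ductal cells was 1.32 with a pseudocount of 0.1 and -0.20 with 0.5. With all libraries, the ratios Suv39h1 to Suv39h2, Hdac4 to Hdac5, Ep300 to Crebbp and Arid1b to Arid1a passed in no comparison. Without cholangiocyte-derived library 118, Arid1b to Arid1a differed by 0.25 between hepatocyte-derived and cholangiocyte-derived ductal cells (exact permutation test, adjusted p = 0.0333, range over alternatives 0.0333 to 0.387). Without hepatocyte library 118, Arid1b to Arid1a differed by 0.52 in hepatocyte-derived ductal cells against hepatocytes (exact permutation test, adjusted p = 0.0357, range 0.0357 to 0.231). In the same setting Ep300 to Crebbp differed by 0.34 in cholangiocyte-derived ductal cells against hepatocytes (exact permutation test, adjusted p = 0.0357, range 0.0357 to 0.596). Over the 4 library numbers that the ductal populations share, Arid1b to Arid1a was higher in the hepatocyte-derived library of 4 pairs (mean difference 0.24 ± 0.10, SD) and Ep300 to Crebbp was lower in 4 (-0.18 ± 0.17, SD). Both have an exact sign-flip permutation p of 0.125, the smallest that 4 pairs can give.

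Hepatocyte library 118 was the lowest hepatocyte library for 25 of the 42 members, 59.5% beside 35.6% of all genes. The members with long transcripts made up most of these. Of members with a transcript of 5000 nt or longer, 15 of 16 were lowest in library 118 (71.4% of all such genes), against 10 of 25 shorter ones (28.1% of all shorter genes). The median log2 difference of library 118 from the other hepatocyte libraries was -0.67 for the long and -0.03 for the shorter members, beside -0.45 and 0.12 for all genes. Dot1l (-1.46) and Crebbp (-1.41) lay at the low end, and Hdac1 (0.62) and Hdac11 (0.52) at the high end. The part of transcript length in the member results was not tested, and on the deposited values 42 members were higher in both ductal populations without this library. With all libraries 66.2% and 67.1% of all genes were higher, and the shares without library 118 are not given here.

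**Figure D4:**
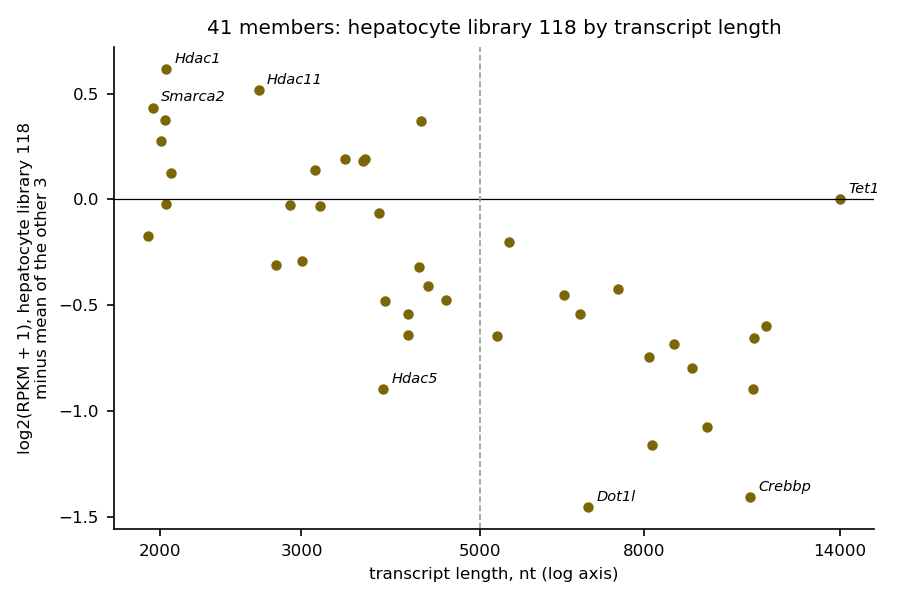
Log2 difference of hepatocyte library 118 from the other hepatocyte libraries against transcript length in nt (log axis) for 41 members with a known length; each point is a member. Long members lie lowest, and Spearman's rho over the 41 members was -0.736, beside -0.527 over all genes, both across genes of 1 library and given as a description.

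Set directly against each other, the ductal populations differed at 14 of the 42 members. In hepatocyte-derived against cholangiocyte-derived ductal cells, 2 were higher (Cbx2 and Rnf2), beside 15.1% of all genes, and 12 were lower, beside 21.0% of all genes. Of the 12, Tet1 passed the filter only through the group in which it is highest, and 11 were lower without it. The 12 were Uhrf1, Kdm6b, Hdac11, Dnmt1, Hdac1, Tet1, Dnmt3a, Setd7, Cbx7, Ezh1, Ring1 and Eed. The median difference was -0.16 over the members and -0.03 over all genes. Library values did not overlap for 2 members that were higher (13.4% of all genes) and for 11, called or not, whose hepatocyte-derived values were lower (20.4% of all genes). These 11 include Tet1, to which the same limit of the filter applies. By role, 3 of 4 DNA methylation genes, 2 of 4 PRC2 genes and 1 each of the TET, demethylase, methyltransferase, class I deacetylase and other deacetylase roles were lower. The TET gene is Tet1, with the limit given above. PRC1 had 2 higher and 2 lower, and no class IIa deacetylase, acetyltransferase or SWI/SNF member passed. Under all 3 scalings, Cbx2 and Rnf2 were higher (14.9% of all genes) and 8 members lower (16.5% of all genes), the 12 without Kdm6b, Tet1, Setd7 and Eed. The mean of hepatocyte-derived ductal cells lay between those of cholangiocyte-derived ductal cells and hepatocytes for 33 of 42 members (59.7% of all genes) and above both for 9 (31.0% of all genes).

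**Figure D5:**
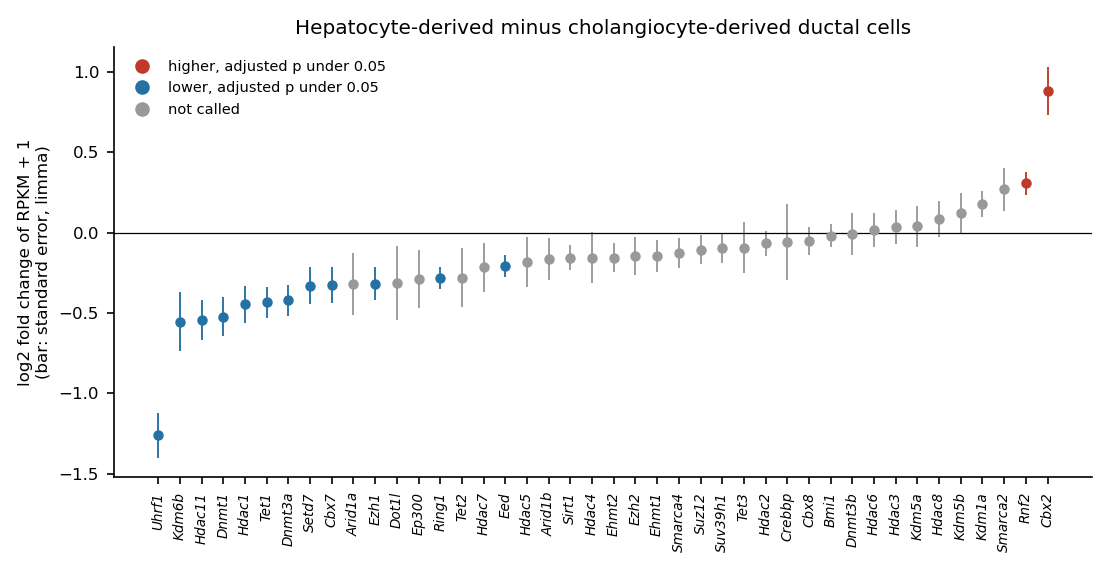
Log2 difference of hepatocyte-derived minus cholangiocyte-derived ductal cells on log2(RPKM + 1) for the 42 tested members, sorted; points are limma estimates, bars are standard errors, and colour marks the adjusted p under 0.05. Cbx2 (0.88) and Rnf2 (0.31) are at the high end and Uhrf1 (-1.26) at the low end, with 12 members called lower.

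Of these, Uhrf1, Dnmt1, Dnmt3a, Ring1, Hdac1 and Hdac11 were called lower, and Cbx2 and Rnf2 higher, in each of the 26 alternatives tried for them. Without cholangiocyte-derived library 220, 7 members were lower. Shares of all genes called under these alternatives are not given here, so such counts only describe how stable the member calls were. The Kdm6b call was lost when any 1 of 5 libraries was left out (hepatocyte-derived 219 and 225, cholangiocyte-derived 118, 220 and 611), with limma adjusted p from 0.0592 to 0.0772. Setd7 lost it without any 1 of 8 libraries (219, 220, 225 and 611 of either ductal population), with limma adjusted p from 0.0542 to 0.1. For Cbx7 there were 8 such libraries (hepatocyte-derived 220, 225, 248 and 611, cholangiocyte-derived 219, 220, 225 and 611), with limma adjusted p from 0.0551 to 0.0887. The Ezh1 call was lost without 220 or 611 of either ductal population (limma adjusted p from 0.0577 to 0.0689), and that of Eed without 219 or 225 of the hepatocyte-derived or 219 or 220 of the cholangiocyte-derived libraries (limma adjusted p from 0.0674 to 0.073). Libraries with the same number deviated together between the ductal populations (correlations of 0.212 to 0.797), but some of different numbers did so too (up to 0.464). With the number as a block 3 members were higher and 14 lower, again without a share of all genes to set beside them. Under the block Tet2 (-0.46, limma adjusted p = 0.0112, range over alternatives 0.0112 to 0.559), Arid1a (-0.49, adjusted p = 0.0372, range 0.0129 to 0.376) and Ehmt1 (-0.24, adjusted p = 0.0354, range 0.0354 to 0.478) were also lower. Smarca2 was higher under the block (0.30, limma adjusted p = 0.0428, range 0.0325 to 0.283), and Eed missed the threshold (-0.21, adjusted p = 0.055, range 0.00139 to 0.0730).

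Between the ductal populations, cell cycle genes moved with the lower maintenance methylation genes. Of 18 such genes, 17 were lower and 0 higher in hepatocyte-derived than in cholangiocyte-derived ductal cells, with a median log2 difference of -0.93, beside 21.0% of all genes called lower and 15.1% higher. Pcna, the sliding clamp of replication, averaged 25.7 RPKM in hepatocyte-derived and 45.3 RPKM in cholangiocyte-derived ductal cells (log2 difference -0.80, limma adjusted p = 2.50e-05), and E2f1 averaged 2.21 RPKM in hepatocyte-derived and 5.48 RPKM in cholangiocyte-derived ductal cells (-0.99, adjusted p = 0.000117). Against hepatocytes, hepatocyte-derived ductal cells had 7 of the 18 higher and 7 lower (66.2% and 14.8% of all genes), and cholangiocyte-derived ductal cells had 12 higher and 0 lower (67.1% and 17.4% of all genes). After rescaling, hepatocyte-derived ductal cells had 6 of the 18 called up and 10 called down, beside 37.9% and 36.0% of all genes. Cholangiocyte-derived ductal cells had 7 called up and 2 called down on that scale, beside 41.1% and 37.5% of all genes. Uhrf1 and Dnmt1 rose in both of these comparisons. On the deposited values E2f1, at 4.31 RPKM in hepatocytes, was lower in hepatocyte-derived ductal cells (-0.71, limma adjusted p = 0.000896). In cholangiocyte-derived ductal cells E2f1 was not called against hepatocytes (0.28, limma adjusted p = 0.117). Pcna, at 16.9 RPKM in hepatocytes, was higher in both ductal populations (0.58 and 1.38, limma adjusted p = 0.00018 and 1.95e-08). The part of the cell cycle genes in the member results was not tested.

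Related chromatin genes outside the 44 mostly rose against hepatocytes as well. In hepatocyte-derived ductal cells against hepatocytes, 13 of 13 further PRC1 subunits, 6 of 6 tested PRC2 accessory subunits, 15 of 15 further SWI/SNF subunits, 7 of 7 arginine methyltransferases, 6 of 6 heterochromatin readers and 20 of 21 deacetylase corepressor subunits were higher, and so were 22 of 24 other lysine methyltransferase and COMPASS genes, 11 of 13 other lysine demethylases and 9 of 10 other acetyltransferases. Over all 135 such genes tested, 125 were higher and 3 lower on the deposited values (66.2% and 14.8% of all genes), and 87 higher and 15 lower after rescaling by median ratios (37.9% and 36.0% of all genes). The further sirtuins gave 4 higher and 1 lower of 6 on the deposited values but 1 higher and 4 lower after rescaling. The methyl-CpG readers and partners gave 12 higher and 2 lower of 14, and 6 higher and 3 lower after rescaling. Phc1, a polyhomeotic subunit of PRC1, averaged 15.9 RPKM in hepatocyte-derived ductal cells and 1.25 RPKM in hepatocytes. Sirt3, a mitochondrial deacetylase, went the other way, with 24.0 RPKM in hepatocyte-derived ductal cells and 54.6 RPKM in hepatocytes (log2 fold change -1.15, limma adjusted p = 1.98e-05). So did Idh1, which makes the alpha-ketoglutarate that TET and JmjC enzymes use, with 103 RPKM in hepatocyte-derived ductal cells and 311 RPKM in hepatocytes (-1.59, limma adjusted p = 2.07e-08).

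Between the ductal populations 10 of these 135 genes were higher and 13 lower in hepatocyte-derived than in cholangiocyte-derived ductal cells, beside 15.1% and 21.0% of all genes. Cbx6, another chromodomain subunit of PRC1, averaged 35.2 RPKM in hepatocyte-derived ductal cells, 84.9 RPKM in cholangiocyte-derived ductal cells and 0.51 RPKM in hepatocytes, a log2 difference of -1.24 between the ductal populations (limma adjusted p = 8.07e-05). Pcgf6 and Pcgf5, subunits of variant PRC1, were higher in hepatocyte-derived ductal cells by 0.26 and 0.27 (limma adjusted p = 0.0257 and 0.0331). Jarid2, a PRC2 cofactor, was lower (-0.28, limma adjusted p = 0.00937), and no arginine methyltransferase or further sirtuin passed. Uhrf2, the paralog of Uhrf1, differed in the opposite direction to it, averaging 37.4 RPKM in hepatocyte-derived and 28.4 RPKM in cholangiocyte-derived ductal cells (0.39, limma adjusted p = 0.0146).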

How the data were processed

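Polyadenylated RNA of 14 sorted samples was sequenced from 75 to 200 ng of total RNA with the Illumina TruSeq kit, version 2, per the labels' protocols. The kit does not mark the strand. The authors deposited one table of RPKM values, normalized to transcript length and library size, with 26005 transcript rows and positions on mm9. The submitters' processing notes name Bowtie 0.12.7 and CASAVA, and the counting method is not given in the sources used here. For 12 columns the name matched a sample title, and the other 2, numbered 220 where the titles carry another number, were matched by group only. The series text counts 3 hepatocyte samples, but the table holds 4, and all were analysed. Depth could be estimated only roughly, from the steps between low values, at 19200000 to 27700000 reads per library. No pair of libraries shared more than 0.467% identical values.

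Each symbol was represented by its row with the highest mean (13 members and 3507 symbols had several). Symbols had to reach 1 RPKM in 4 or more libraries, which left 12638. Their log2(RPKM + 1) values were fitted in one model of the 3 groups by limma 3.58.1 (R 4.3.3), with its trend option. Neither this model nor the exact permutation tests of ratios took account of the library numbers. All tests were two-sided, with Benjamini-Hochberg adjustment over all genes tested and a threshold of 0.05. The log2(RPKM + 1) scale understates changes of low genes. Log2 ratios of 14 paralog pairs, with 0.1 RPKM added to each gene, were compared by exact permutation over libraries, adjusted over 42 tests. The smallest p this allows is 0.00794. The steps were checked on simulated data. Tables, ratios and plots used pandas 2.3.3, numpy 2.4.6 and matplotlib 3.10.9 under Python 3.11.15.

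Values by library are given for the 4 called members with the highest and the 4 with the lowest log2 fold change in each comparison, for Dnmt1, Uhrf1, Ezh1 and Ezh2, and for members without a test. Values by library of Tet1 were added after they were seen. Companion genes are named from the 4 with the smallest adjusted p per list. The members, lists and pairs were chosen with earlier results of these data known.

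Library numbers are shared between groups. The deviations of same-numbered libraries from their group means correlated at 0.797, 0.428, 0.212 and 0.424 between the ductal groups. They correlated at 0.512, 0.133 and 0.225 between cholangiocyte-derived ductal cells and hepatocytes, and at 0.129, 0.0208 and 0.193 between hepatocyte-derived ductal cells and hepatocytes. Between libraries of different numbers the correlations ranged over -0.564 to 0.464, -0.467 to 0.458 and -0.357 to 0.437 in the same order. They therefore do not settle whether a number marks matched samples. Only the replicate block and the sign-flip tests used the numbers as pairs. Alternatives changed the scaling, pseudocount, filter, row choice, weights, block and libraries.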

Additional observations from a re-analysis of the deposited data

Results flagged for a closer look

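In 8 of 131 groups of library values, 1 library stood apart from the rest of its group by Dixon's criterion, where chance gives about 6.6. Of the 8, 5 concern hepatocyte library 118. In that library Suz12 was at 9.93 RPKM (13.4 to 13.6 RPKM in the other 3 hepatocyte libraries) and Hdac6 at 5.57 RPKM (8.51 to 8.67 RPKM), both low. Hdac1 at 6.46 RPKM (at most 3.93 RPKM in the others), Hdac11 at 34.4 RPKM (23.1 to 24.0 RPKM) and Hdac9 at 0.50 RPKM (listed at 0 in the others) were high there.

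Hepatocyte-derived library 219 was high for Cbx7, at 24.9 RPKM (16.9 to 18.3 RPKM in the other 4), and for its paralog Cbx8, at 9.96 RPKM (7.79 to 8.34 RPKM). Cholangiocyte-derived library 118 was low for Setd7, at 12.8 RPKM (14.2 to 14.7 RPKM in the other 4). None of these was weighed further.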

How the results depend on the processing

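For hepatocyte-derived ductal cells against hepatocytes, all genes called higher were 8363 on deposited values, 4790 rescaled by median ratios, 4596 after quantile normalization and 4918 rescaled without hepatocyte library 118, and all genes called lower were 1873, 4549, 4136 and 4748. Members called lower there were 0, 1, 1 and 3. For cholangiocyte-derived ductal cells against hepatocytes, genes called higher were 8475, 5197, 4891 and 5408, genes called lower 2195, 4734, 4769 and 4915, and members called lower 0 on deposited values, 3 after quantile normalization and 1 rescaled without library 118. Rescaling without library 118 was chosen after seeing the data. The members that turned were Dnmt3b (-0.56 in hepatocyte-derived and -0.85 in cholangiocyte-derived ductal cells, quantile), Eed (-0.22 rescaled and -0.20 without library 118), Suz12 (-0.20) and Hdac6 (-0.20) in hepatocyte-derived ductal cells without library 118, and Cbx8 (-0.25, quantile) and Hdac6 (-0.23 under quantile and -0.23 rescaled without library 118) in cholangiocyte-derived ductal cells. The Tet1 to Tet3 ratio of hepatocyte-derived ductal cells against hepatocytes turned to -0.20 with a pseudocount of 0.5, where 0.01 RPKM entries carry less weight.

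For hepatocyte-derived against cholangiocyte-derived ductal cells, 2 members were called higher, and 4 with only the groups compared or rescaled without library 118. Members called lower were 12, beside 21.0% of all genes, and 20 with library weights. The share of all genes called lower with library weights is not given here. Member counts without such a share describe how the calls moved and are not read as a result about the members. All genes called higher were 1913, 3069 after quantile normalization and 2987 with library weights. Leaving out 1 library at a time gave 2 to 4 members higher and 7 to 15 lower in this comparison, with 7 without cholangiocyte-derived library 220. Setd7 missed the threshold in 12 of 26 alternatives, Cbx7 in 8, Kdm6b in 7, Eed in 7 and Ezh1 in 4. The causes were not tested.

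With the replicate block, members called higher and lower were 42 and 0 in hepatocyte-derived and 42 and 0 in cholangiocyte-derived ductal cells against hepatocytes, and 3 and 14 in hepatocyte-derived against cholangiocyte-derived ductal cells. Shares of all genes called with the block are not given here. For the ratios, the pairing by number was tested by exact sign flips. Between the ductal populations 9 of 14 ratios differed in one direction in each of the 4 pairs, and 4 pairs allow no p below 0.125. Against hepatocytes 3 numbers are shared, which allow no p below 0.25.

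Leaving out 1 library gave 0 to 7 ratios called in both comparisons with hepatocytes and 4 to 7 between the ductal populations. Without the 3 libraries rich in other cells, 0 were called in hepatocyte-derived ductal cells against hepatocytes and 0 between the ductal populations. Between the ductal populations the count was 4 without any 1 ductal library other than cholangiocyte-derived 118, where 5 against 4 libraries allow the same smallest exact p, 0.00794, as 5 against 5. The fall to 0 against hepatocytes came with 4 against 4 libraries (smallest exact p 0.0286), and without the 3 libraries 5 against 3 remain (0.0179). The adjustment runs over all 42 tests. Of the other values under an alternative, 3731 kept direction and side of the threshold, 245 lost the call and 36 gained one. Low members (Tet1, Dnmt3b, Suv39h2, Hdac9) are limited by depth and by the 2 decimals of the table.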
